A study of Mus musculus with 23 samples.

Results

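Gene expression was measured in hand-dissected mouse connecting tubule and cortical collecting duct, the hormone-controlled end of the kidney tubule, with and without the mineralocorticoid receptor. The comparison described here sets 6 libraries from knockout mice on a normal potassium diet (KO-NK, replicates 1 to 6) against 5 libraries from control mice on the same diet (CT-NK, replicates 1 to 5), chosen by their labels, out of 23 libraries in all. Every mouse, controls included, carried Pax8-rtTA, TRE-LC-1 and MRflox/flox. Pax8-rtTA makes a doxycycline-dependent activator along the renal tubule, TRE-LC-1 makes Cre recombinase under that activator, and Cre cuts out the floxed part of Nr3c2, the receptor gene. Knockouts were induced for 2 weeks with 2 mg/ml doxycycline in drinking water with 5% sucrose and then had 2 weeks of washout on a rescue diet. Control mice drank 5% sucrose alone, and the diets were fed for 4 days. The groups therefore also differed in doxycycline, and the labels do not say whether control mice ate the rescue diet, so these differences and the loss of the receptor cannot be told apart. A second pair of groups, knockout on low potassium (KO-LK, n = 6) and control on high potassium (CT-HK, n = 6), shares no library with the first and is used below as a second reading of knockout against control. Separate animals are not stated for the libraries of a group, so the p-values describe the spread among libraries, which may be technical.

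The mineralocorticoid receptor is a hormone-activated transcription factor of the nuclear receptor family. Aldosterone, and glucocorticoids where they are not inactivated, bind it, and the receptor then attaches to palindromic DNA elements that it shares with the glucocorticoid receptor. In the connecting tubule and collecting duct it is known for raising sodium reabsorption and potassium secretion, with the kinase Sgk1 among its earliest targets.

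The 11 libraries held 16158408 to 28140420 estimated counts, with the lowest depth in KO-NK replicate 3. CT-NK averaged 25160000 ± 3370000 counts (SD, n = 5) and KO-NK 22250000 ± 3620000 (SD, n = 6; two-sided exact permutation test, p = 0.197). KO-NK replicate 3 also stood apart in its protein-coding share of 88.85%, against 92.19% to 94.24% in the other 10 libraries. It held 8644 CPM (counts per unit of library size) on olfactory and vomeronasal receptor genes, the chemosensory receptors, which kidney tubules are not known for. That value, and the cut on chemosensory receptors used below, are without TMM scaling. The gene levels and marker sums given below are TMM-scaled CPM. Defining markers of principal and intercalated cells were present in both groups, for example Aqp2, the water channel of principal cells, at a mean of 3043 CPM in the controls and 2204 in the knockouts. Proximal tubule markers varied most among the carried-over segments, from 693.2 to 18610 CPM summed over 28 genes in CT-NK, with the highest sum in replicate 5, and from 1100 to 5978 in KO-NK. None of the 28 proximal tubule genes passed the test, but 27 had a negative log2 fold change.

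The receptor gene itself comes first. Nr3c2 (ENSMUSG00000031618) spans GRCm38 chromosome 8 from 76899442 to 77245012 on the plus strand. Its level was 120, 117, 151.5, 84.3 and 66.6 CPM in CT-NK replicates 1 to 5. In KO-NK it ran from 47.7 to 71.5 CPM with a median of 58.4. The control library with the least, replicate 5, lay inside the knockout range, so the groups overlapped. Nr3c2 fell, by a log2 value of -0.88 (SE 0.22, adjusted p = 0.0373 by edgeR's quasi-likelihood test with Benjamini-Hochberg adjustment over 25829 genes, the test used for every gene level below). The call did not hold without KO-NK replicate 1 or any of CT-NK replicates 1, 2 and 3 (adjusted p of 0.0749, 0.0816, 0.0793 and 0.117). It was also lost with an offset for relative transcript length (-0.54, adjusted p = 0.254), in limma on log2(TPM + 1) (-0.17, 0.648), with no filter (0.0842), without the libraries above 2500 CPM on chemosensory receptor genes (0.21), against a 1.2-fold change (0.118) and in the 11 libraries alone (0.0507), and remained negative in each. In this tissue, fewer cells of a type and less RNA per cell cannot be told apart, and that holds for each level that follows.

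Salmon assigns reads to transcripts, so a gene's count divided by its TPM reflects the length of the transcripts it was assigned to. This relative length, on a log2 scale and centred on the median gene of each library, was tested with limma for the 12852 genes with at least 20 counts in all 23 libraries. For Nr3c2 it was -0.21, -0.06, -0.08, -0.11 and -0.18 in CT-NK and lay between -0.67 and -0.33 in KO-NK, with no overlap. The mean went from -0.13 ± 0.07 (SD, n = 5) to -0.46 ± 0.12 (SD, n = 6), a log2 difference of -0.33 (SE 0.06, limma adjusted p = 0.0436) or -20.6%. Unlike the Nr3c2 level, the relative length separated every knockout library from every control library. The extent of the floxed part is not given in the sources used here, so this difference was not set against the deleted sequence. Nr3c2 was 1 of 7 genes called for relative length, 0.0545% of those tested, and its call held in 1 of the 11 fits that left out a library (adjusted p 0.0331 to 0.135). In KO-LK against CT-HK the groups did not overlap either, with a log2 difference of -0.30 (adjusted p = 0.0618). Of the other 6 genes, Ahnak, which encodes a giant scaffold protein (GRCm38 chromosome 19, 8989284 to 9076914), had the largest difference. Its relative length was 1.01, 0.54, 1.10, 1.09 and 0.89 in CT-NK and 1.71 to 2.19 in KO-NK. Every knockout library lay above every control, by 0.93 on average (SE 0.12, limma adjusted p = 0.0034), and the call held in all 11 fits that left out a library (adjusted p 0.00622 to 0.0185). In KO-LK against CT-HK the Ahnak groups overlapped, with a difference of 0.44 (adjusted p = 0.281).

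**Figure D1:**
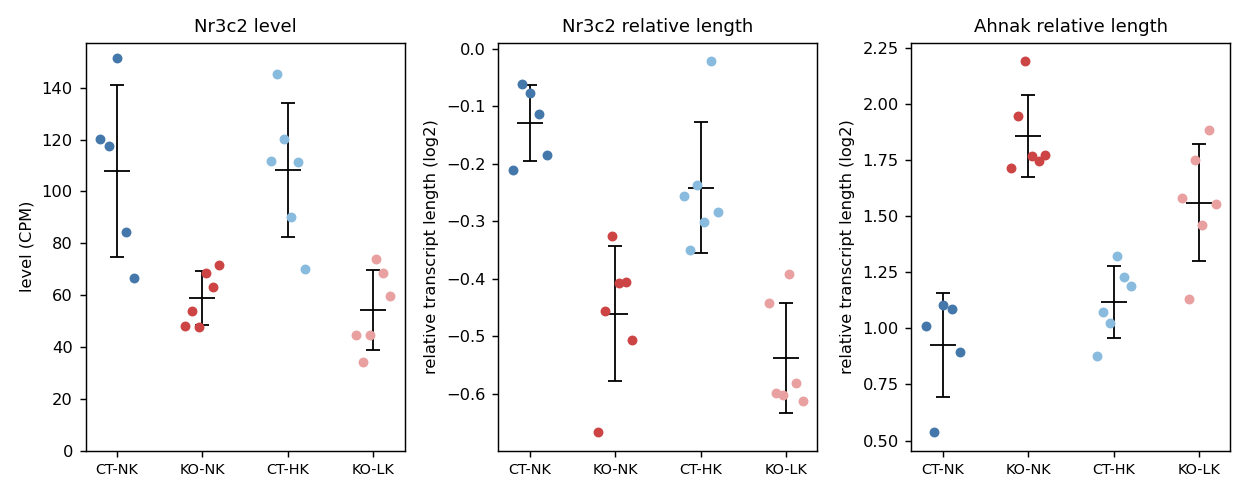
Nr3c2 level in CPM, and relative transcript length (log2, centred per library) of Nr3c2 and Ahnak, for each library of the 4 groups, with bars for mean and SD. The Nr3c2 level overlaps between CT-NK and KO-NK, with control replicate 5 at 66.6 CPM, whereas its relative length does not (CT-NK -0.21 to -0.06, KO-NK -0.67 to -0.33).

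Across the genome, 439 of 25829 genes passed the test (1.7%), 242 of them higher (0.937%) and 197 lower (0.763%) in the knockout. Genes that rose tended to move further: 154 higher and 73 lower genes changed at least 2-fold, and 26 higher and 5 lower genes at least 4-fold. The libraries of the groups did not overlap for 554 genes (2.14%), among them 170 of the higher and 139 of the lower genes. The call held for 175 genes (0.678%) whichever single library was left out, and for 105 (0.407%) under every alternative fit that was planned. Over all genes the log2 fold change had a median of 0.15, and lists below are given relative to it. By mean level, the median was 0.37 under 1 CPM, 0 at 20 to 100 CPM and -0.13 over 100 CPM. Lists of abundant genes therefore stand lower against 0.15 than against genes of their own level. Where the sign of a list median given in the text differs in a fit of log2(TPM + 1), that value is added as the TPM setting. Calls were concentrated among abundant genes: 7.7% of the 1597 genes above 100 CPM were called, against 0.0119% of the 8373 genes below 1 CPM. When the test was limited to the 12421 genes with at least 5 CPM in 5 libraries (the stricter filter), 2462 passed (19.8%). DESeq2, another test of counts, called 1169 of the 25829 genes. A list with few or no calls in the main fit can hold more in these settings.

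**Figure D2:**
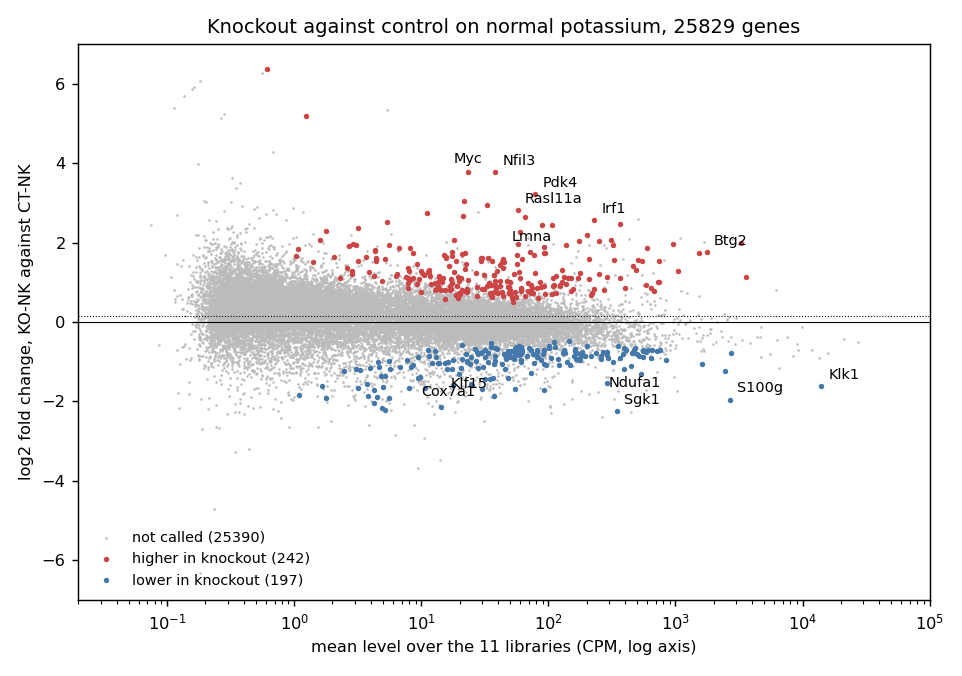
Log2 fold change of KO-NK against CT-NK for 25829 genes against their mean level in the 11 libraries (CPM, log axis), with 242 higher and 197 lower genes coloured. The dotted line marks the median of all genes at 0.15; Myc, Nfil3 and Pdk4 are among the named genes furthest above it and Sgk1 furthest below.

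Of 30 tested genes on a list of mineralocorticoid and glucocorticoid targets, 7 fell (Sgk1, Mt2, Klf15, Tsc22d3, Zbtb16, Mt1 and Fkbp5) and 2 rose (Pdk4 and Edn1), while 15 members were positive and 15 negative. The list's median was -0.16 relative to all genes, against 0.01 in the TPM setting, where 8 members were called higher and 6 lower. Sgk1 (chromosome 10, 21882184 to 21999903, plus strand), a kinase that aldosterone induces and that keeps the epithelial sodium channel at the cell surface, stood at 729, 667, 559, 524 and 562 CPM in CT-NK. In KO-NK it ran from 43.9 to 272 CPM with a median of 108. The highest knockout library held less than the lowest control, and the fall was 4.73-fold (log2 fold change -2.24, SE 0.34, adjusted p = 0.000803). Klf15, a transcription factor that glucocorticoids induce and that controls amino acid breakdown, was at 90.9, 54.4, 46.7, 48.4 and 89.5 CPM in the controls and at 17.8 to 34.6 CPM (median 30.2) in the knockouts. These ranges did not overlap (log2 fold change -1.19, SE 0.20, adjusted p = 0.00202). Tsc22d3, which encodes the steroid-induced leucine zipper protein GILZ, was at 38.7, 39.6, 59.4, 45.8 and 79.2 CPM in the controls and at 19.1 to 33.1 CPM (median 24.1) in the knockouts, again without overlap (-1.07, SE 0.21, adjusted p = 0.00843). Without both CT-NK replicate 5 and KO-NK replicate 3, a setting added after the data were seen, Tsc22d3 did not pass (adjusted p = 0.0765).

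The metal-binding metallothioneins are steroid-responsive as well, and both tested genes, Mt1 and Mt2, fell. Only 1 of them was called without CT-NK replicate 2, without the high-chemosensory libraries or in the TPM setting. Mt2 stood at 115, 136, 48.5, 42.3 and 91.3 CPM in CT-NK, a wide spread, and at 22 to 32.3 CPM (median 26.8) in the knockouts. All knockout libraries lay below all controls (log2 fold change -1.68, SE 0.28, adjusted p = 0.00183). Zbtb16, a zinc finger repressor, fell too (-1.70, SE 0.35, adjusted p = 0.0105) but did not pass when the 11 libraries were fitted alone (adjusted p = 0.0589). Edn1, which encodes endothelin-1, a peptide known to inhibit sodium uptake in the collecting duct, rose (1.94, SE 0.33, adjusted p = 0.00202). It did not pass without the libraries above 2500 CPM on chemosensory receptor genes (adjusted p = 0.0579). Nedd4l, a target of Sgk1 that marks the sodium channel for removal, rose from a mean of 222 to 483 CPM (1.12, SE 0.19, adjusted p = 0.00179).

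Promoter sequence was looked up for the called genes, since some direct targets hold receptor elements next to a start site. RefSeq windows of GRCm38.p6, 250 bases before to 50 after the start, were found for 323 of the 439 called genes and 15428 of the tested ones. The palindromic element is AGAACA and TGTTCT with 3 bases between them, read on both strands. It was present in 2 of the 15428 genes (0.013%), and 1 of them is Sgk1. These genes had 19347 windows, and a gene counts once if any of its windows matches. A looser form that contains the palindromic element, GNACA and TGTNC with 3 bases between them, was in 5 of 154 lower genes (3.25%: Cisd3, Gnmt, Mpv17, Mt1 and Sgk1). It was in 1 of 169 higher genes (0.592%: Jund) and in 0.48% of all genes with a window. A match describes letters in this window and does not show binding. Sequence outside the window was not searched, so a gene without a match may hold an element elsewhere. The Sgk1 stretch is chr10:21993640-21993889 on the plus strand, and the Mt1 stretch is chr8:94178965-94179037 on the plus strand, each printed 5′ to 3′ with the element in capitals.
Sgk1: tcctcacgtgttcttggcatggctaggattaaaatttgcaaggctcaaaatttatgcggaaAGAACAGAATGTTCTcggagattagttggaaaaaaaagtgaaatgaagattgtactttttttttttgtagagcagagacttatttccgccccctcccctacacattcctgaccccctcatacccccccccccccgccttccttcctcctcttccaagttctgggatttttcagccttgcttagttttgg
Mt1: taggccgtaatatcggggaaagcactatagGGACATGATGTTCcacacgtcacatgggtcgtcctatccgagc

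Genes of the mitochondrial respiratory chain moved downwards together. Of 78 tested nuclear-encoded subunits, 31 fell and none rose, and all 78 had a negative log2 fold change. Their median was -0.63, or -0.79 relative to all genes. The called genes came from every complex. Ndufa1 of complex I (chromosome X, 37187588 to 37191163, minus strand) stood at 510, 421, 494, 344 and 442 CPM in the controls and at 124 to 292 CPM (median 225) in the knockouts. No knockout library reached the lowest control (log2 fold change -1.01, SE 0.18, adjusted p = 0.00252). Sdhc, a membrane anchor of complex II, was at 232, 243, 253, 200 and 227 CPM in the controls and at 77.2 to 148 CPM (median 124) in the knockouts. The controls were tightly grouped and all above the knockouts (-0.93, SE 0.16, adjusted p = 0.00183). Cox7a1 of complex IV (chromosome 7, 30184144 to 30186078, plus strand), an isoform best known from heart and muscle, was at 73.0, 54.9, 68.3, 43.7 and 39.8 CPM in the controls and at 10.8 to 28.1 CPM (median 21.9) in the knockouts. The groups did not overlap (-1.41, SE 0.22, adjusted p = 0.0012). Uqcrq of complex III and Atp5g1, the membrane ring subunit of the ATP synthase, had log2 fold changes of -0.90 each (adjusted p of 0.00928 and 0.0106), and neither passed when genes were not filtered (adjusted p of 0.0513 and 0.0631).

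The number of called subunits depended on single libraries. It was 8 without CT-NK replicate 1, 9 without CT-NK replicate 3, 13 without CT-NK replicate 2, 14 without CT-NK replicate 5 and 17 without KO-NK replicate 1, and 54 without KO-NK replicate 3 or 6. It also depended on the method: 73 subunits were called lower with the stricter filter, 64 with DESeq2 and 18 in the TPM setting. None was called higher in these 3 settings, and the stricter filter called 19.8% of all its genes. The subunits summed to 48170, 38300, 49970, 35470 and 40930 CPM in CT-NK and to 16630 to 34540 CPM in KO-NK, with no overlap. Summed proximal tubule markers were 7705, 866.2, 693.2, 8196 and 18610 CPM in the same control libraries, and control replicates 2 and 3 lay below every knockout. With scores for 2 segments, the proximal tubule and the thick ascending limb, in the fit, 6 subunits were called, and the part of proximal tubule RNA in the fall was not otherwise tested. In KO-LK against CT-HK, 74 of the 78 fell, and the list stood at -0.88 relative to the median gene.

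Other mitochondrial groups showed the same sign with fewer calls. All 78 tested mitochondrial ribosomal protein genes had negative log2 fold changes and 3 fell (Mrps36, Mrps21 and Mrpl16), but that number was 0 when KO-NK replicate 1 or any of control replicates 1, 2, 3 and 5 was left out, and 13 without KO-NK replicate 6. Of 26 genes encoded by the mitochondrial genome, 25 were negative and 1 fell, the 12S ribosomal RNA mt-Rnr1, a count of 0 without CT-NK replicate 1, 4 or 5 and of 4 without CT-NK replicate 2 or KO-NK replicate 6. The stricter filter called 53 mitochondrial ribosomal protein genes and 14 mitochondrially encoded genes lower, and DESeq2 18 and 12. In the TPM setting these counts were 0 and 3, and with the segment covariates 0 and 0. As a share of all counts, mitochondrially encoded transcripts made up 16.48, 10.81, 12.54, 16.57 and 19.93% in CT-NK and 9.4% to 13.38% in KO-NK. The groups overlapped, and their means of 15.27 ± 3.61% (SD, n = 5) and 10.89 ± 1.55% (SD, n = 6) differed with p = 0.0238 in a two-sided exact permutation test. In the sum of TPM the share was 19.66% in CT-NK and 16.44% in KO-NK, which did not pass the exact permutation test (p = 0.152). Cytosolic ribosomal proteins had no call among 80, of which 51 were negative, and a median of -0.23 relative to all genes. In the TPM setting that median was 0.08, with 19 members called higher and 0 lower. The proteasome had no call among 48 (42 negative) and the vacuolar proton pump no call among 23 (19 negative), where 1.7% of all genes were called. With the stricter filter, 10 proteasome and 7 proton pump genes were called lower and 0 higher. DESeq2 called 0 and 2 lower, and the TPM setting called 4 and 1 higher and 0 lower. Cytosolic ribosomal proteins had 1 higher and 5 lower calls with the stricter filter.

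Transcripts of a few enzymes of fuel use changed. There were 1 higher and 1 lower call among 25 genes of the tricarboxylic acid cycle and pyruvate dehydrogenase (8%). Glycolysis had 1 higher and 2 lower among 25 (12%). Of all genes 1.7% were called, and of genes above 100 CPM 7.7%, so these counts alone do not set the lists apart from abundant genes. Pdk4 (ENSMUSG00000019577, chromosome 6, 5483351 to 5496309, minus strand), the kinase that switches off pyruvate dehydrogenase and is induced by steroids and fasting, stood at 10.4, 10.8, 30.9, 11.3 and 7.54 CPM in CT-NK. In KO-NK it ran from 72.2 to 232 CPM with a median of 124. Even the highest control, replicate 3, lay well under the lowest knockout library, and Pdk4 had the smallest p of all named genes, with a 9.36-fold rise (log2 fold change 3.23, SE 0.35, adjusted p = 6.81e-05). Bcat2, the mitochondrial aminotransferase that starts the breakdown of branched-chain amino acids (chromosome 7, 45570153 to 45589711, plus strand), was at 461, 277, 375, 298 and 337 CPM in the controls and at 110 to 211 CPM (median 197) in the knockouts. All knockouts were below all controls (-0.94, SE 0.19, adjusted p = 0.00844). With Bckdha, Bckdhb, Ivd, Pccb and Mcee, which act further along the same route, 6 of 20 tested genes of branched-chain amino acid breakdown fell and 19 were negative, and the list's median was -0.70 relative to all genes. That count was 2 without CT-NK replicate 1, 3 without CT-NK replicate 5 and 3 with the segment covariates, and 18 of the 20 fell in KO-LK against CT-HK.

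Ketone and fatty acid use gave 2 calls among 33 tested genes (6.06%, against 1.7% of all genes), Bdh1 and Echs1, both lower. Bdh1, which oxidises the ketone body beta-hydroxybutyrate, was at 47.0, 20.2, 22.1, 21.7 and 29.8 CPM in the controls and at 4.08 to 13.0 CPM (median 9.78) in the knockouts. The ranges were separate (log2 fold change -1.59, SE 0.25, adjusted p = 0.0012). Pgam2, the muscle-type phosphoglycerate mutase of glycolysis, stood at 990, 702, 970, 649 and 648 CPM in the controls and at 185 to 411 CPM (median 330) in the knockouts, also apart (-1.32, SE 0.24, adjusted p = 0.00345). Slc25a35, an inner-membrane carrier of unsettled substrate, was at 110, 83.7, 76.0, 64.2 and 85.4 CPM in the controls and at 28.6 to 52.2 CPM (median 42.0) in the knockouts. No library of one group reached the other (-0.999, SE 0.20, adjusted p = 0.00792), and Slc25a29, which carries basic amino acids, fell as well (-1.16, SE 0.20, adjusted p = 0.0024). These were the carrier calls: 2 of 44 mitochondrial carriers and 5 of 346 solute carriers as a whole (1.45%), with 2 of the 5 higher. No potassium channel gene passed among 79. With the stricter filter, 4 of them were called higher and 2 lower, and with DESeq2 2 and 2. The median of the 79 was 0.20 relative to all genes, against -0.08 in the TPM setting, where 5 were called higher and 0 lower.

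Castor2, of the family that reports arginine to the growth regulator mTORC1, was at 78.1, 53.2, 53.2, 29.1 and 49.2 CPM in the controls and at 14 to 22.7 CPM (median 20.04) in the knockouts. The lowest control remained above the highest knockout (log2 fold change -1.44, SE 0.23, adjusted p = 0.00152). Prr5l, which binds the related complex mTORC2, moved the other way, from 21.4 ± 4.33 (SD, n = 5) to 61.2 ± 13.3 CPM (SD, n = 6; 1.51, SE 0.18, adjusted p = 0.000164). P2ry1, a purinergic receptor that responds to extracellular ADP, was at 22.1, 19, 15.7, 10.6 and 17.5 CPM in the controls and at 3.92 to 7.53 CPM (median 5.39) in the knockouts. It fell without overlap (-1.66, SE 0.23, adjusted p = 0.00038). Atp12a, the non-gastric proton-potassium pump, was scarce in CT-NK at 4.09, 2.61, 10.4, 7.81 and 2.13 CPM and ran from 21.8 to 49.1 CPM (median 35.3) in the knockouts. All knockouts lay above all controls, a 6.39-fold rise (2.68, SE 0.43, adjusted p = 0.00152).

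Of 12 tested connecting tubule markers, 3 fell and 1 rose, with a median of -0.23 against all genes (0.09 in the TPM setting). S100g, the small calcium buffer calbindin-D9k (chromosome X, 162961992 to 162964599, minus strand), stood at 4353, 5215, 5611, 3630 and 3560 CPM in the controls and at 612 to 1532 CPM (median 1160) in the knockouts. The groups were far apart (log2 fold change -1.95, SE 0.34, adjusted p = 0.00241). Klk1, the protease tissue kallikrein (chromosome 7, 44225360 to 44229618), took more counts than most genes, at 28795, 18570, 17995, 22626 and 22518 CPM in the controls and at 3424 to 12321 CPM (median 7034) in the knockouts. Its ranges did not overlap and the fall was 3.06-fold, but the test was passed narrowly (-1.62, SE 0.41, adjusted p = 0.0408) and was not passed without any 1 of the 5 CT-NK libraries (adjusted p 0.0525 to 0.0967) or without KO-NK replicate 1 or 2 (0.086 and 0.0652). Calb1, the larger calcium buffer calbindin-D28k, had a log2 fold change of -1.24 (adjusted p = 0.0439) and was called in 5 of the 11 fits that left out a library.

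The summed connecting tubule markers ran from 29360 to 42440 CPM in the controls and from 9664 to 17070 CPM in the knockouts, with no overlap, and Klk1 and S100g make up most of the fall in that sum. The part of connecting tubule content in the other results was not tested. Principal cell markers summed to 6827 to 13050 CPM in the controls and 6881 to 16160 in the knockouts, and alpha-intercalated markers to 6059 to 10130 and 3745 to 10040, so both sums overlapped. Of 18 principal cell markers, Krt8, Krt18 and Elf3 rose and none fell, and none of 14 alpha-intercalated markers passed. The alpha-intercalated median was -0.21 relative to all genes, against 0.06 in the TPM setting, where 3 were called higher and 0 lower. Spink8, a protease inhibitor on the list of beta-intercalated markers, was at 472, 488, 618, 358 and 304 CPM in the controls and at 68.1 to 205 CPM (median 166) in the knockouts. It fell without overlap (log2 fold change -1.53, SE 0.22, adjusted p = 0.000508), and 1 other of those 12 markers fell, Igfbp5.

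Kallikreins as a family had 6 calls among 23 tested genes (26.1%, against 1.7% of all genes), none of them higher, and a median that was -0.97 relative to all genes. Besides Klk1 these were Klk1b8 (log2 fold change -2.16, SE 0.27, adjusted p = 0.000176), Klk1b3 (-1.90), Klk1b5 (-1.69), Klk1b24 (-1.87) and Klk1b9 (-1.66). These genes are near-identical neighbours, so reads from Klk1 may have been split among them and their separate levels are uncertain. The number called ran from 4 to 9 when single libraries were left out.

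Other lower genes belonged to none of these pathways. Dcn, which encodes the matrix proteoglycan decorin of fibroblasts, was at 20.1, 23.2, 35.9, 18.1 and 26.3 CPM in the controls and at 2.86 to 9.34 CPM (median 4.38) in the knockouts. Its groups were separate (log2 fold change -2.15, SE 0.32, adjusted p = 0.00069), and it was the 1 call among 17 fibroblast and smooth muscle markers. Of these 17, 16 were negative, their median was -1.13 relative to all genes, and their summed level overlapped (143.9 to 644 CPM in the controls, 207.3 to 283.6 in the knockouts). The part of fibroblast content in the Dcn result was not tested. In KO-LK against CT-HK, Dcn had a log2 fold change of -0.02 (adjusted p = 1). Gchfr, the feedback regulator of tetrahydrobiopterin synthesis, fell (-1.55, SE 0.23, adjusted p = 0.000803), as did Mymx, a small membrane protein known from muscle cell fusion (-1.43, SE 0.29, adjusted p = 0.00985).

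**Figure D3:**
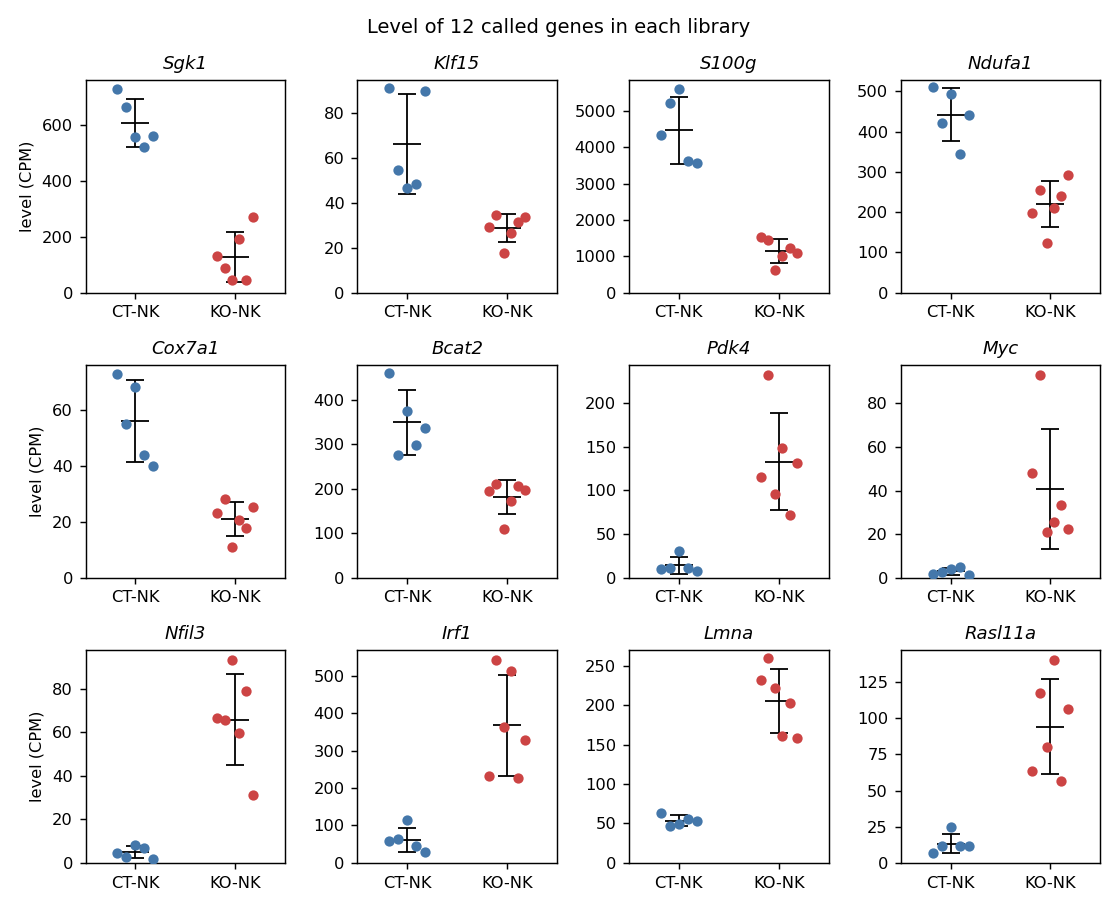
Level in CPM of 12 called genes in each library of CT-NK and KO-NK, with bars for mean and SD. Each panel starts at 0 and no gene shown overlaps between groups; Sgk1, Klf15, S100g, Ndufa1, Cox7a1 and Bcat2 are lower in KO-NK, and Pdk4, Myc, Nfil3, Irf1, Lmna and Rasl11a are higher.

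The higher side was led by immediate early genes, which cells switch on within minutes of growth factor or stress signals. Of 26 tested genes on that list, 14 rose (Myc, Mcl1, Ier5, Gem, Zfp36l1, Egr2, Btg2, Srf, Egr1, Arc, Ier5l, Zfp36, Ier2 and Csrnp1), 1 fell (Rgs2), and the median was 1.40 relative to all genes. Myc, the growth-promoting transcription factor (chromosome 15, 61985391 to 61990374, plus strand), was at 1.72, 2.64, 3.92, 5.16 and 1.29 CPM in the controls and at 21.2 to 93.0 CPM (median 29.5) in the knockouts. It was low in every control and higher in every knockout library, a 13.8-fold rise (log2 fold change 3.78, SE 0.49, adjusted p = 0.00026). Btg2, an antiproliferative gene, was at 1202, 1126, 726, 455 and 319 CPM in the controls and at 2293 to 3421 CPM (median 2410) in the knockouts. The controls spread widely but stayed below the knockouts (1.76, SE 0.31, adjusted p = 0.00289). Fos averaged 1250 ± 769 CPM (SD, n = 5) in CT-NK and 4994 ± 678 (SD, n = 6) in KO-NK (2.00, SE 0.38, adjusted p = 0.00554), and with Jun, Jund and Fosb it made up the 4 calls among 18 AP-1 and partner genes, all higher.

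Part of these calls rested on particular libraries, and the labels give neither the hour of dissection nor the time to lysis. Without the libraries above 2500 CPM on chemosensory receptors (CT-NK replicates 2 and 4, KO-NK replicates 1 and 3, and those of the other groups), 7 immediate early and no AP-1 genes were called, with adjusted p of 0.0661 for Fos, 0.165 for Jun, 0.138 for Egr1 and 0.0613 for Gem, whose log2 fold changes were 2.09, 1.74, 1.70 and 2.49 there. Myc, Btg2, Mcl1, Ier5 and Zfp36l1 were called under every alternative. Leaving out single libraries gave 10 to 15 higher immediate early genes and 2 to 5 higher AP-1 genes.

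The inflammatory and stress-response lists held fewer calls with large folds. Irf1, an interferon-regulatory transcription factor (chromosome 11, 53770014 to 53778374, plus strand), was at 58.5, 64.5, 113, 44.6 and 29.0 CPM in the controls and at 226 to 543 CPM (median 346) in the knockouts. The lowest knockout library held more than the highest control, and the rise was 5.93-fold (log2 fold change 2.57, SE 0.43, adjusted p = 0.00183). With Nfkbiz, Tnfaip2, Tnfaip3, Nfkbie and Cxcl16 it made up 6 higher and no lower calls among 29 NF-kappaB response genes and chemokines. Tnfaip3, the feedback inhibitor A20, had a log2 fold change of 2.27 (adjusted p = 0.0122) and did not pass without the high-chemosensory libraries (adjusted p = 0.118). The interferon response itself had no call among 30 genes, of which 25 were negative. Ppp1r15a, which encodes GADD34 and restarts translation after stress, was at 121, 100, 134, 57.4 and 48.0 CPM in the controls and at 322 to 491 CPM (median 362) in the knockouts, without overlap (2.05, SE 0.29, adjusted p = 0.000508). Ddit3, the stress-induced factor CHOP, was at 34.8, 62.9, 53.2, 36.8 and 21.2 CPM in the controls and at 96.9 to 183 CPM (median 128) in the knockouts, also apart (1.73, SE 0.28, adjusted p = 0.00152). Those 2 and Ndrg1 were the calls among 37 genes of the integrated stress response, whose median was -0.22 relative to all genes (0.07 in the TPM setting). Heat shock proteins had no call among 21. The cell cycle inhibitor Cdkn1a rose (1.04, SE 0.18, adjusted p = 0.0024), 1 of 3 higher among 23 p53 targets (13%, against 1.7% of all genes).

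Several transcription factors rose without overlap. Tgif1, a homeobox repressor of TGF-beta signalling, was at 19.2, 22.5, 37.2, 16.2 and 16.9 CPM in the controls and at 66.2 to 111 CPM (median 89.7) in the knockouts. Every knockout library exceeded every control (log2 fold change 1.97, SE 0.26, adjusted p = 0.000307). Its relative Tgif2 was at 1.02, 2.77, 1.96, 1.19 and 0.446 CPM in the controls and at 7 to 11.3 CPM (median 8.04) in the knockouts, equally apart (2.52, SE 0.41, adjusted p = 0.00152). Klf10, an early TGF-beta-inducible repressor, was at 36.6, 38.7, 64.9, 43.2 and 19.2 CPM in the controls and at 108 to 200 CPM (median 118) in the knockouts. It rose without overlap (1.75, SE 0.25, adjusted p = 0.000651), as did its close relative Klf11 (1.61, SE 0.25, adjusted p = 0.00118), while Klf15, above, was the lower call among 17 Kruppel-like factors. The YAP and TGF-beta response list as a whole had 3 higher calls among 28 (Vcl, Ccn1 and Smad7) and a median of 0.05 relative to all genes.

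Of 32 actin and adhesion genes, 1 rose in the test (16 in the TPM setting, and 8 in KO-LK against CT-HK), and 20 were positive. The list's median was -0.05 relative to all genes, against 0.26 in the TPM setting, and 12 members were negative. Their summed level, to which abundant genes add most, was 7185 to 10090 CPM in the controls and 10220 to 14900 in the knockouts, without overlap. The called gene, Lmna, encodes the nuclear lamins A and C (ENSMUSG00000028063, chromosome 3, 88480147 to 88509956, minus strand) and was at 63.8, 46.4, 48.8, 55.7 and 53.3 CPM in CT-NK against 158 to 259 CPM (median 212) in the knockouts. The controls were close together and far below the knockouts (log2 fold change 1.94, SE 0.25, adjusted p = 0.000211). Vcl, which encodes the focal adhesion protein vinculin, was at 28.0, 16.1, 23.1, 20.9 and 22.1 CPM in the controls and at 31.9 to 65.9 CPM (median 48.5) in the knockouts, separate by a small margin (1.19, SE 0.18, adjusted p = 0.000937). Krt8, the simple epithelial keratin, was at 348, 263, 319, 240 and 161 CPM in the controls and at 560 to 1044 CPM (median 757) in the knockouts. It rose together with its partner Krt18 (log2 fold changes of 1.54 and 1.41, adjusted p of 0.00241 and 0.00392), the 2 calls among 28 keratins (7.14%, against 1.7% of all genes). Cdh3, P-cadherin, rose as well (1.75, SE 0.28, adjusted p = 0.00119).

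Among signalling genes, Rasl11a, a small Ras-like GTPase found in the nucleolus (ENSMUSG00000029641, chromosome 5, 146845071 to 146847726, plus strand), was at 6.73, 11.7, 24.8, 11.9 and 12 CPM in the controls and at 56.7 to 141 CPM (median 93.5) in the knockouts. The lowest knockout held more than the highest control, replicate 3, for a 7.02-fold rise (log2 fold change 2.81, SE 0.41, adjusted p = 0.00069). Rasl11b, its paralog, went from 11.4 ± 4.09 (SD, n = 5) to 31.5 ± 7.22 CPM (SD, n = 6; 1.47, SE 0.22, adjusted p = 0.000703). Rassf1, a scaffold of the Hippo pathway, was at 27.9, 26.0, 35.6, 28.8 and 28.2 CPM in the controls and at 67.7 to 116 CPM (median 83.5) in the knockouts. Its control libraries were nearly alike and the groups were apart (1.60, SE 0.20, adjusted p = 0.000176). Nuak2, a kinase related to AMPK, was at 133, 127, 76.7, 105 and 124 CPM in the controls and at 257 to 825 CPM (median 445) in the knockouts, again without overlap (2.07, SE 0.33, adjusted p = 0.00132). Pde7b, a phosphodiesterase that breaks down cyclic AMP, rose (1.27, SE 0.19, adjusted p = 0.00069), with Pde3b and Pde10a the other calls among 65 phosphodiesterase and cyclic AMP genes (4.62%, against 1.7% of all genes). Gpc3, the membrane-anchored proteoglycan glypican-3, rose too (1.77, SE 0.26, adjusted p = 0.00069).

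Clock genes divided: 3 of 21 rose (Nfil3, Arntl and Bhlhe40) and 3 fell (Dbp, Ciart and Tef), against 8 and 2 in the TPM setting. The hour of dissection is not given for any library. Nfil3, a repressor that competes with Dbp for the same DNA element, was at 4.69, 2.67, 8.16, 6.99 and 1.69 CPM in the controls and at 31.0 to 93.4 CPM (median 66.1) in the knockouts. It rose 13.6-fold without overlap (log2 fold change 3.77, SE 0.47, adjusted p = 0.000176). Ciart, a repressor of the core clock, was at 12.3, 9.96, 2.68, 6.03 and 14.2 CPM in the controls and at 0.677 to 3.32 CPM (median 1.74) in the knockouts. CT-NK replicate 3 lay inside the knockout range, and the fall still passed (-2.22, SE 0.39, adjusted p = 0.00241). Dbp, a clock output activator, fell from 149 ± 66.6 (SD, n = 5) to 45.3 ± 11.2 CPM (SD, n = 6; -1.71, SE 0.29, adjusted p = 0.00183), and Arntl, the core activator BMAL1, rose (2.08, SE 0.43, adjusted p = 0.0116). Arntl did not pass when the 11 libraries were fitted alone (adjusted p = 0.0538). Bhlhe40 did not pass without the high-chemosensory libraries (adjusted p = 0.0903). It was also lost without both CT-NK replicate 5 and KO-NK replicate 3 (adjusted p = 0.0622), the setting added after the data were seen.

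Promoter motifs of the genes above are shown for their position only. The E-box CACGTG, which clock and Myc proteins bind, was in 5 of 17 clock genes with a window (29.4%) and in 10.1% of all genes with a window. It was in 13% of higher and 11% of lower genes. The cyclic AMP response element TGACGTCA was in 6.51% of higher and 2.6% of lower genes and in 2.83% of all. For the AP-1 element, TGA and TCA with 1 base between them, these shares were 8.88%, 6.49% and 7.64%. Of 33 genes with a window on the AP-1 and immediate early lists, 2 held it (6.06%). The D-box TTATGTAA was in 0 of 169 higher and 1 of 154 lower genes and in 0.92% of all. For the kappaB element the shares were 18.3%, 12.3% and 13%. The CArG box that Srf binds was in 4.73% of higher and 3.25% of lower genes and in 1.6% of all. The NRF1 element, GCGCA followed by TGCGC, known from respiratory chain genes, was in 5 of 64 nuclear respiratory chain genes (7.81%) and in 1.67% of all. All were searched on both strands. Capitals mark the motifs in the stretches below, which are read 5′ to 3′ on the gene's strand: Ciart from chr3:95882247-95882364 (minus), Vcl from chr14:20929148-20929210 (plus), Srf from chr17:46556195-46556264 (minus), Btg2 from chr1:134079284-134079351 (minus), Ppp1r15a from chr7:45526269-45526310 (minus) and Cox6a1 from chr5:115349081-115349150 (minus). Srf and Cox6a1 were chosen for these matches after their values were seen.
Ciart: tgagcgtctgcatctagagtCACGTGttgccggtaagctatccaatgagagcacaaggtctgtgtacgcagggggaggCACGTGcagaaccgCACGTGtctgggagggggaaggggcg
Vcl: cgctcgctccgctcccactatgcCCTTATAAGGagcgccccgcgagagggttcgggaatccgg
Srf: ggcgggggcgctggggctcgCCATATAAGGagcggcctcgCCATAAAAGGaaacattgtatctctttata
Btg2: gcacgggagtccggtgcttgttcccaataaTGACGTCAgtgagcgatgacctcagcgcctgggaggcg
Ppp1r15a: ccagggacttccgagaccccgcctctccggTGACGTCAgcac
Cox6a1: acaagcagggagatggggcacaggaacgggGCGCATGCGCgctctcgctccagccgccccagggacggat

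**Figure D4:**
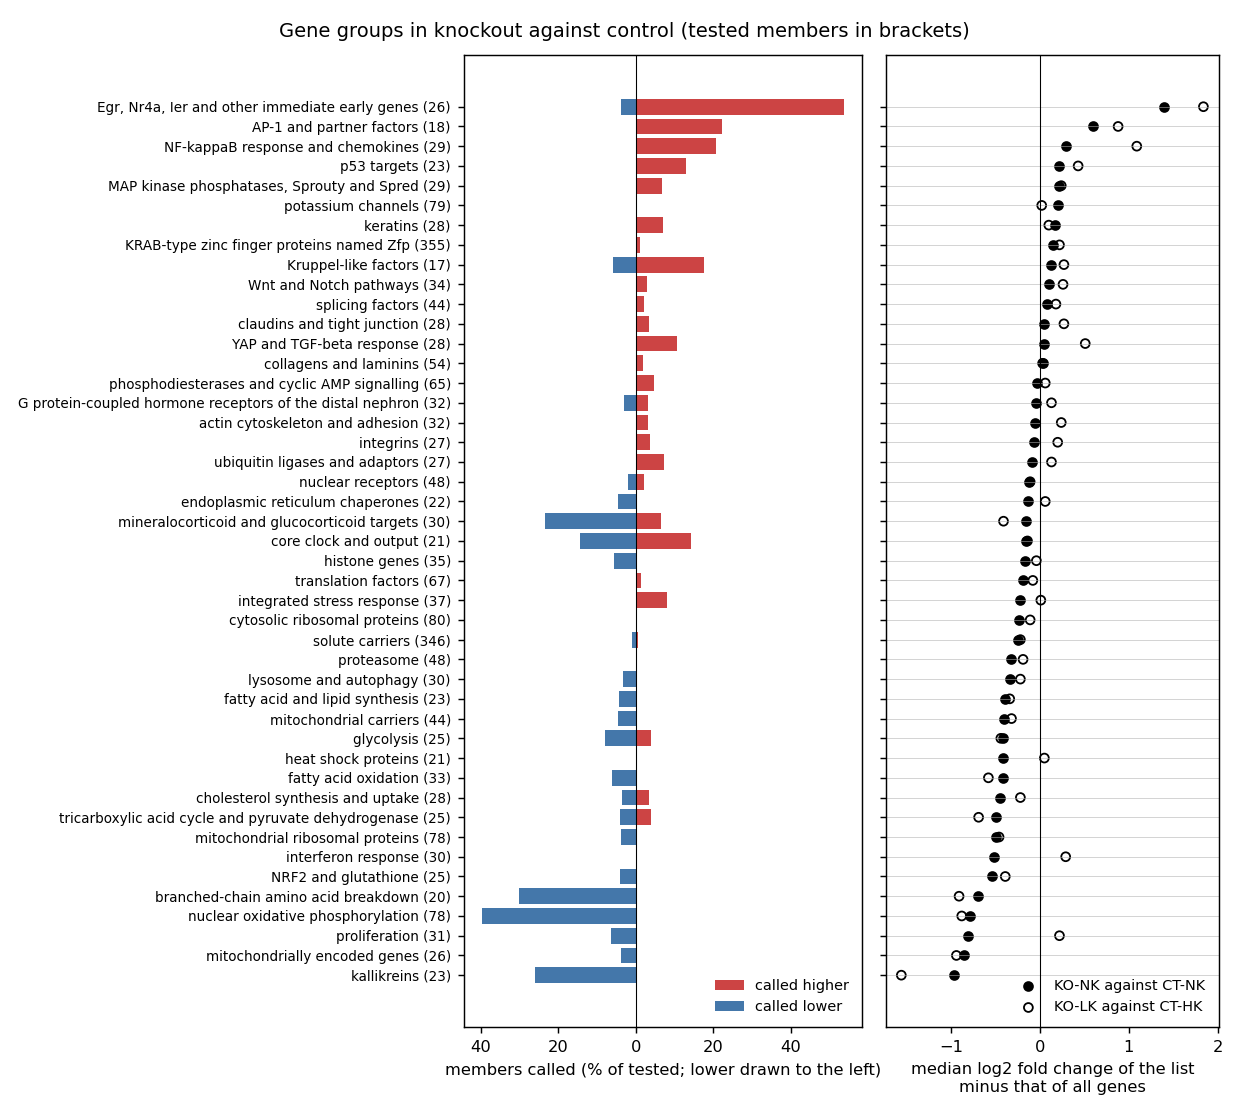
Share of tested members called higher (right) or lower (left) in KO-NK against CT-NK for the gene lists shown (members tested in brackets), and the list's median log2 fold change minus that of all genes (filled, KO-NK against CT-NK; open, KO-LK against CT-HK). Among these lists, immediate early genes have the most members called higher, 14 of 26, and nuclear oxidative phosphorylation the most called lower, 31 of 78.

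Short genes held more of the lower calls and long genes more of the higher calls. Among 7130 protein-coding genes of at least 20 CPM, the fifth with the shortest exons (204 to 2561 bases in all) held 28 higher and 84 lower calls and had a median log2 fold change of -0.25. The fifth with the longest exons (8036 to 123179 bases) held 37 higher and 6 lower calls and had a median of 0.16. Called genes that rose had a median exon length of 4323.5 bases, those that fell 2181, and all tested genes 3261. With an offset for relative transcript length in the fit, 400 genes were called, 229 of them higher. That offset holds only shifts between libraries within each gene, so it cannot test the pattern by exon length.

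The second pair of groups gave a reading from other libraries. KO-LK against CT-HK, whose diets differ while KO-NK and CT-NK shared one, called 1418 genes (5.49%), 568 higher (2.2%) and 850 lower (3.29%). Of the 242 genes that rose in KO-NK, 170 also rose there, which is 70.2% of the first list and 29.9% of the second. Of the 197 genes that fell, 170 also fell, 86.3% of the first and 20% of the second. The sign was shared by 97.9% of the higher and 97.5% of the lower genes, where 48.7% of all genes were positive and 51.3% negative in KO-LK against CT-HK, and no gene was called in opposite directions. The difference between the 2 comparisons was tested for each gene and passed for 0 genes with edgeR (634 at an unadjusted p under 0.05, 2.45% of genes) and for 10 of 17803 with DESeq2. Values nonetheless ranged: Sgk1 had a log2 fold change of -2.24 here and -4.14 there, Rasl11a 2.81 and 5.00, Pdk4 3.23 and 1.73, and P2ry1 -1.66 and -3.02. For Ddit3 (0.71, adjusted p = 0.133), Nabp1 (0.55) and Rgs2 (-0.03, adjusted p = 1) the second comparison did not pass.

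**Figure D5:**
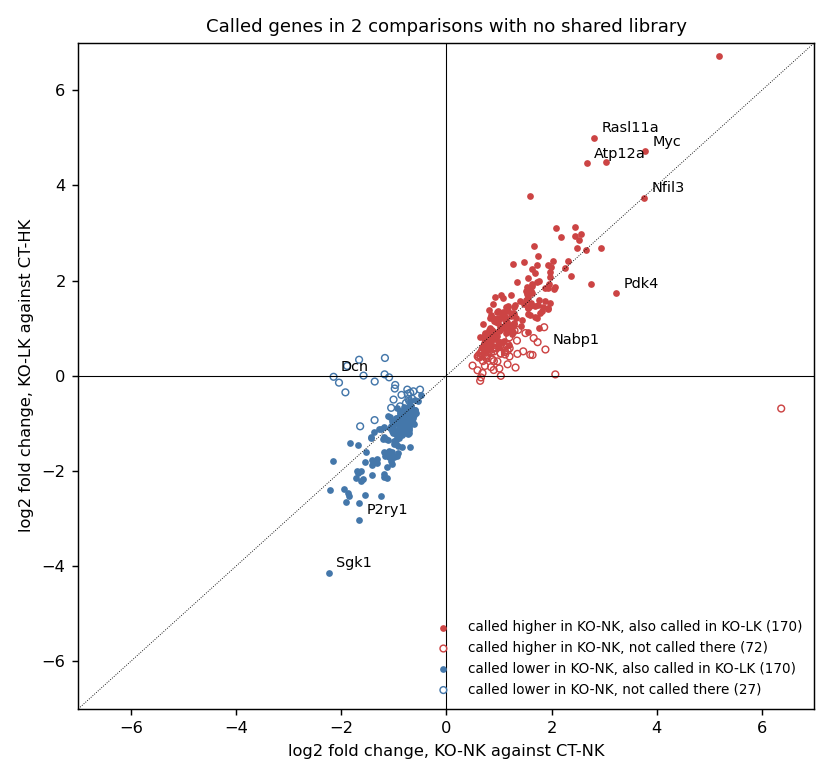
Log2 fold change of the 439 called genes in KO-NK against CT-NK (horizontal) and in KO-LK against CT-HK (vertical), with the diagonal of equal change dotted. Filled points (170 higher, 170 lower) were called in both in the same direction, and Dcn and Nabp1 are among the open points that were not.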

How the data were processed

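Per the labels' protocols, RNA of dissected tubules was amplified with SMART-Seq HT and made into Nextera XT libraries. Per the submitters' processing notes, Salmon (version listed as 0.14.10) and GRCm38.p6 were used. The authors deposited expected counts per gene, of which 35.9% are not whole, and TPM, a length-scaled share of transcripts. Counts were rounded and fitted with edgeR 4.0.16 (R 4.3.3; TMM, default filter on low counts, 23 libraries with a mean for each of 4 groups, threshold 0.05, 19 residual degrees of freedom). CPM are scaled by TMM, except the chemosensory receptor values and the cut set on them. Relative length was tested with limma 3.58.1. The pipeline was tested on simulated data.

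Named genes were Nr3c2; per direction the 30 of smallest p among those changed by 1 or more on the log2 scale and above 5 CPM, the 10 of highest level and the 5 of largest fold (at least 1 CPM); up to 5 per list (61 lists); and 15 for relative length. Predicted genes were not named, and a few results are not reported here. Comparison and lists were chosen with earlier results of these data known. Alternatives were DESeq2 1.42.0 and its size factors, other filters, limma on log2(TPM + 1), a replicate block, a length offset, segment covariates, a 1.2-fold test, and leaving libraries out. Gene models are from GENCODE M21 and promoters from RefSeq.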

Additional observations from a re-analysis of the deposited data

Results flagged for a closer look

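Single libraries far from the rest of their group were looked for among the main genes and marker sums. Of 98 groups tested, 11 had a library whose gap to its nearest neighbour passed Dixon's 95% limit, where about 5 (1 in 20) are expected by chance. In CT-NK replicate 3, Pdk4 stood at 30.91 CPM with the next library at 11.28, and Rasl11a at 24.75 with the next at 11.95. In KO-NK replicate 2, Myc stood at 93.01 CPM with the next at 48.03, and Btg2 at 3421 with the next at 2656. In KO-NK replicate 3, Bcat2 was lowest at 109.9 CPM with the next at 173.0. The summed connecting tubule markers were highest in CT-NK replicate 1, at 42440 CPM against 31910. CT-NK replicate 5 was far above the other controls in summed markers of the distal convoluted tubule (2231 against 1085 CPM), podocytes (377.8 against 83.57) and the thick ascending limb (1746 against 676.2). KO-NK replicate 3 was highest in podocyte markers (447.2 against 86.87 CPM), and KO-NK replicate 5 in thick ascending limb markers (3989 against 1333 CPM). All 5 genes were called whichever single library was left out.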

How the results depend on the processing

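Against 439 called genes in KO-NK against CT-NK, DESeq2 called 1169, no filter 186, the stricter filter 2462 of 12421 (19.8%), limma on log2(TPM + 1) 3041 (95.6% higher, against 55.1%), segment covariates 267, leaving out the high-chemosensory libraries 279 (36.9% higher), the 1.2-fold test 199 and the 11 libraries alone 233. Leaving out 1 library gave 233 (without CT-NK replicate 5) to 919 (without KO-NK replicate 3), with 299 without CT-NK replicate 2 and 652 without KO-NK replicate 6, at 43.4% to 74.1% higher. Leaving out both CT-NK replicate 5 and KO-NK replicate 3, added after the data were seen, gave 193. For KO-LK against CT-HK, 1418 became 2413 with DESeq2, 825 with no filter, 3150 with the stricter filter, 6852 with limma, 889 and 822 under the chemosensory and 1.2-fold settings. The 7 relative-length calls became 4 in the 11 libraries alone, 5 at 100 counts and 1 to 5 with 1 library left out, and the 0 genes for the difference became 10 with DESeq2. The mitochondrial share difference of -4.376 points was -3.222 in TPM and -5.49 to -3.21 with 1 library left out; it did not pass without CT-NK replicate 5 or KO-NK replicate 1, 3 or 4. The cause of these shifts was not tested. Same-numbered libraries did not deviate together (correlations of -0.44 to 0.14). This cannot show that the numbers do not pair samples, since differences of single libraries could hide a pairing. The replicate block gave 394, 1074 and 7 calls and Nr3c2 an adjusted p of 0.101. The median of all genes, 0.15, was -0.05 without KO-NK replicate 3. Of 2093 alternative values of 91 named genes, 2026 kept call and direction, 67 lost the call and 0 changed sign. Many of these genes were named for small p, high level or large fold in this same comparison, a choice that favours keeping the call. The count therefore does not describe called genes in general. Among all 439 called genes, 175 kept the call whichever single library was left out. Only 105 kept it in every alternative fit other than those added after the data were seen.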

Other observations

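A run of related genes on the X chromosome, noticed after the values were seen and therefore given without a test, moved in one direction. The Bex, Tceal, Armcx, Gprasp, Arxes and Bhlhb9 genes, small adaptor and armadillo-repeat proteins best known from neurons, lie within 2.02 Mb (GRCm38 chromosome X, 134686519 to 136711478). Of 22 annotated members, 20 were tested, 6 rose in KO-NK (Armcx6, Armcx2, Gprasp1, Gprasp2, Bex2 and Bex1), none fell, and all 20 had a positive log2 fold change with a median of 0.70. The other 661 tested genes of the X chromosome held 4 higher and 5 lower calls with a median of 0.16. Bex1 stood at 3.99, 3.6, 4.44, 2.92 and 1.49 CPM in the controls and ran from 7.64 to 17.7 CPM (median 12.2) in KO-NK, and Bex2 stood at 2.88, 1.38, 1.88, 1 and 2.08 CPM against 4.78 to 7.99 CPM (median 6.15). Neither gene overlapped between groups. Bex1 and Bex2 were called in all 22 alternatives, whereas 3 of the 6 remained without CT-NK replicate 5 (Armcx6, Armcx2 and Gprasp1 did not) and 2 without the high-chemosensory libraries, and Armcx2 held in 3 of the 11 fits that left out a library. In KO-LK against CT-HK, 5 of the 20 rose and 19 were positive.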
